A study of Rattus norvegicus with 29 samples.

Results

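The genes described here are Ret, Gfra1, Gfra2, Gfra3 and Artn of the GDNF family signalling system, 5 of the 16238 named genes in the count files of rat dorsal root ganglia. They were picked by symbol and not by a cut on measured values, although earlier results of these data were known. Ret is listed with 2 RefSeq transcripts and each other gene with 1, so the 5 genes hold 6 of 18092 counted transcripts, and for Ret the transcript with the most reads (NM_012643) stands for the gene unless the other is named. Although the set goes by the name of receptors, Artn encodes a ligand.

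Polyadenylated RNA was sequenced from whole ganglia of cervical segments C6 to C8, which hold the cell bodies of sensory neurons that serve the forelimb, taken on the affected side from elderly Lister Hooded rats. NT3 rats had a cortical stroke on 1 side and neurotrophin-3 infused under the skin (5 libraries at week 11 and 5 at week 5). Vehicle rats had the same stroke and an infusion of vehicle (5 and 5). Sham rats, called naïve in the text of the series, had no stroke (5 at week 11 and 4 at week 5), and an infusion is described for stroke rats only, so the stroke and the vehicle infusion cannot be told apart in vehicle against sham. Each library came from another rat, the weeks are therefore different animals, and whole ganglia mix neurons with glia, vessels and immune cells. In such tissue, fewer cells of a type and less RNA per cell cannot be told apart.

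GDNF family ligands act through a receptor pair. A GFRα protein, anchored in the membrane by a lipid, binds the ligand, and the complex engages RET, the tyrosine kinase that carries the signal into the cell. GFRα1 (Gfra1) is the main co-receptor of GDNF, GFRα2 (Gfra2) that of neurturin and GFRα3 (Gfra3) that of artemin, the product of Artn. In the rodent ganglion, Ret is known for its expression in non-peptidergic nociceptors and in part of the larger neurons, and Gfra3 for its expression mainly in peptidergic nociceptors that depend on nerve growth factor.

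Ret and Gfra1, which varied together between rats, are shown by their promoter windows, from 250 bases before to 50 bases after the transcription start in RefSeq, build GRCr8, on the gene's strand. The Ret window lies at chr4:153040507-153040806 (minus strand) and the Gfra1 window at chr1:267555762-267556061 (minus strand). Capitals mark the GC box searched for, GGGCGG or its reverse complement CCGCCC.
Ret: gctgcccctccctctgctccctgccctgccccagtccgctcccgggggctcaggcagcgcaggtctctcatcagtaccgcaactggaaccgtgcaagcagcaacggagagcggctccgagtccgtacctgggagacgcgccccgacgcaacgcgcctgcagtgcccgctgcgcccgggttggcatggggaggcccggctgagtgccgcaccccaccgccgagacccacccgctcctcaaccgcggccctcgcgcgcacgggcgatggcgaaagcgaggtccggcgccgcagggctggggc
Gfra1: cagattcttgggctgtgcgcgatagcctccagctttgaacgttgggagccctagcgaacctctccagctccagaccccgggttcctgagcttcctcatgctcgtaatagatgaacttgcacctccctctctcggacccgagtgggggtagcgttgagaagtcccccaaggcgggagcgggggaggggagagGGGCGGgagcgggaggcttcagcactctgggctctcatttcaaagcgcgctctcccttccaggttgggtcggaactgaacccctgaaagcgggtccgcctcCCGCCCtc
The Ret window held no GC box, the Gfra1 window 2, the Gfra3 window 3 and the Artn window 2, while 33.063% of 33469 promoters of the same length held at least 1. The motif TGTGGT, or its reverse complement ACCACA, which RUNX factors are known to bind, was in none of these 4 windows and in 17.297% of all. No window was at hand for Gfra2, so neither search covers it. Ret had the most CpG pairs of the 4, 35 in the window against 19 in Gfra1, 26 in Gfra3, 21 in Artn and a median of 7 over all promoters, and 93.87% of promoters held fewer than Ret. These are letters in a window of another build than the counts, and no binding was measured.

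The 4 receptor genes were read deeply and Artn was not. Over 29 libraries, Ret had 227036 reads, Gfra1 (NM_012959) 154673, Gfra2 (NM_012750) 87404 and Gfra3 (NM_053398) 39641, while Artn (NM_053397) had 316, or 5 to 17 reads per library. The second Ret transcript (NM_001110099) had 72162 reads. Assigned reads per library were between 16703574 and 22773108 in 28 libraries and 9555685 in vehicle rat 27 at week 11, which also had the highest summed level of brain and spinal cord markers (459.8 CPM, against 50.9 to 169 CPM in the others). Of these markers the glial gene Gfap had by far the highest mean (87.4 CPM), so the sums do not measure central tissue alone. Sham rat 8 at week 11 stood farthest out on the first principal component of all transcripts. All values below are library-scaled counts (CPM, with TMM factors), which compare a gene between rats and not with another gene, since transcript lengths were not at hand.

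Ret, the signalling receptor, had a lower mean at week 11 than at week 5 in all 3 arms, with the smallest difference in NT3 rats. In NT3 rats Ret was at 335, 389, 401, 424 and 476 CPM at week 11, against 377, 382, 422, 453 and 480.4 CPM at week 5. In vehicle rats Ret was at 366, 367, 394, 402 and 428 CPM at week 11, against 456, 458, 459.7, 473 and 505 CPM at week 5. The 2 weeks overlapped widely in NT3 rats and did not overlap in vehicle rats, where 0.796% of 12556 tested transcripts lay below without overlap. In sham rats Ret was at 282, 368, 376, 386 and 437 CPM at week 11, against 435, 468, 476 and 487 CPM at week 5. Of the week 11 sham rats, only rat 8, at 437 CPM, reached into the range of week 5.

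**Figure D1:**
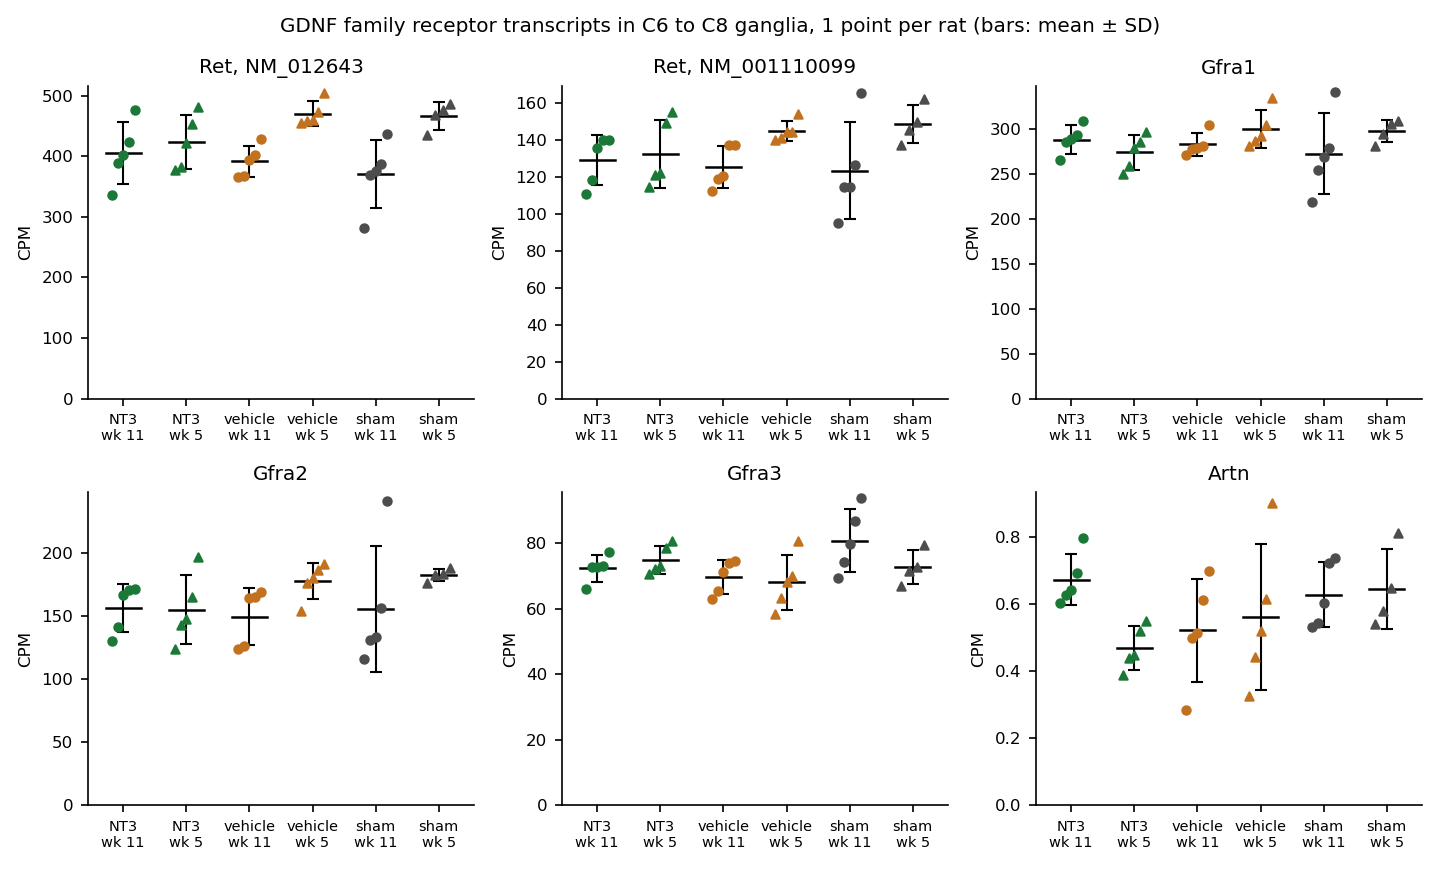
Level of each transcript in CPM (vertical axes start at 0) in the 6 groups, with 1 point per rat, circles for week 11 and triangles for week 5, a bar at the mean and whiskers of 1 SD. The 5 vehicle rats at week 11 (366 to 428 CPM) sit below the 5 at week 5 (456 to 505 CPM) for Ret, and 1 sham rat at week 11 is high in the second Ret transcript, Gfra1, Gfra2 and Gfra3.

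The log2 fold change of Ret at week 11 against week 5 was -0.06 (SE 0.09; adjusted p = 1) in NT3 rats, -0.27 (SE 0.09; adjusted p = 0.233) in vehicle rats and -0.34 (SE 0.10; adjusted p = 0.988) in sham rats by edgeR's quasi-likelihood test with Benjamini-Hochberg adjustment. With the 3 arms averaged, a contrast added after the values were seen, Ret was 14.2% lower at week 11 (log2 fold change -0.22, SE 0.05, 95% confidence interval -0.33 to -0.11), and it missed the threshold of 0.05 narrowly (unadjusted p = 0.00039, adjusted p = 0.0628). Ret averaged 389 ± 45.5 CPM at week 11 (SD, n = 15) and 452 ± 37.1 CPM at week 5 (SD, n = 14). The call depended on the fit: without sham rat 8 the value was -0.24 with an adjusted p of 0.0179, and with all libraries kept DESeq2 also called it (-0.23, adjusted p = 0.0202). Of the 5 genes, 0 passed in vehicle rats, where 0.844% of all tested transcripts did, and 0 passed with the arms averaged, where 0.502% did. In NT3 and in sham rats edgeR called 0% of transcripts, with 1.58% and 3.73% at an unadjusted p under 0.05. In sham rats limma voom with quality weights, a fit that weights libraries by how far they stand apart, called Ret (-0.36, adjusted p = 0.00709), Gfra1 (-0.22, adjusted p = 0.0145) and Gfra2 (-0.43, adjusted p = 0.0131), together with 2209 transcripts in all.

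Whether the weeks differed more in one arm than in another was tested directly. For Ret, the change between weeks was less negative in NT3 rats than in sham or vehicle rats. The difference was 0.27 from sham rats (SE 0.13, edgeR unadjusted p = 0.0528, adjusted p = 1) and 0.20 from vehicle rats (SE 0.13, adjusted p = 1). An arm-specific course was therefore not shown.

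The second transcript of Ret followed the first. It averaged 129 ± 13.6 CPM at week 11 and 132 ± 18.2 CPM at week 5 in NT3 rats, 125 ± 11.4 and 145 ± 5.54 CPM at weeks 11 and 5 in vehicle rats, and 123 ± 26.3 and 148 ± 10.4 CPM at weeks 11 and 5 in sham rats (SD, n = 5, and 4 in sham rats at week 5). Its vehicle libraries at week 11 also lay below those at week 5 without overlap, and with the arms averaged the log2 fold change was -0.17 (SE 0.06; adjusted p = 0.287). It held 24.1 ± 1.08% of Ret reads over 29 libraries (22.3 to 27.5%). The share was 24.4 ± 1.3% at week 11 and 23.8 ± 0.687% at week 5. Reads that fit both transcripts may be absent from both counts, so the share is one of assigned reads only, and the files do not say which protein form each transcript encodes.

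In vehicle rats some other measures of the ganglia also differed between the weeks, and the other arms are set beside them. The 8 macrophage markers summed to 116 to 361 CPM in vehicle rats at week 11, against 75.0 to 83.8 CPM at week 5, and 5 of the 8 passed the test (median log2 fold change 1.26, against -0.02 over all transcripts). These calls were lost with only the 2 groups in the fit, without vehicle rat 27 and without vehicle rat 1 (0 of 8 called in each), while all 8 values stayed positive, with medians of 1.26, 0.88 and 1.25. In NT3 rats their median was 0.39 and in sham rats 0.37, with 0 of 8 called in each. Markers of non-peptidergic nociceptors and of low-threshold C fibres, which carry Ret in rodents, had a median of -0.03 in NT3 rats, -0.40 in vehicle rats (0 of 9 tested markers called) and -0.17 in sham rats. Over all transcripts the medians in these arms were 0.002, -0.016 and 0.038. The list of peptidergic nociceptor and cold receptor markers includes Scn10a, a sodium channel of nociceptors, which had its highest mean (960 CPM). Its summed level in vehicle rats had a median of 1679 CPM (1514 to 1899) at week 11 and 1935 CPM (1900 to 2040) at week 5. The medians of this list at weeks 11 and 5 were 1646 (1415 to 2412) and 1967 CPM (1832 to 1985) in sham rats. In NT3 rats they were 1772 (1654 to 1869) and 1749 CPM (1493 to 2076). Summed fibroblast markers had medians at weeks 11 and 5 of 1056 (880.8 to 1227) and 739.5 CPM (637.4 to 866.4) in vehicle rats. They were 1075 (636.8 to 1113) and 965.9 CPM (811.5 to 1057) in sham rats. In NT3 rats they were 981.5 (853.5 to 1307) and 961.1 CPM (892.4 to 1250). The summed levels were not tested. The part of any of these cell types in the Ret values was not tested.

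Gfra1, the co-receptor of GDNF, varied least between rats, with a coefficient of variation of 8.55% over 29 libraries. It averaged 289 ± 15.8 CPM at week 11 and 274 ± 19.2 CPM at week 5 in NT3 rats, 283 ± 12.7 and 300.4 ± 21.4 CPM at weeks 11 and 5 in vehicle rats, and 273 ± 45.1 and 298 ± 12.4 CPM at weeks 11 and 5 in sham rats (SD, n = 5, and 4 in sham rats at week 5). In sham rats at week 11 it was at 219, 255, 269.6, 279 and 342 CPM, a wider range than in any other group, with rat 11 lowest and rat 8 highest. Week 11 against week 5 gave log2 fold changes of 0.07 (SE 0.08) in NT3, -0.08 (SE 0.08) in vehicle and -0.13 (SE 0.08) in sham rats, each with an adjusted p of at least 0.988.

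Gfra2, the co-receptor of neurturin, varied most among the receptor genes, with a coefficient of variation of 17.2%. It averaged 156 ± 19.0 CPM at week 11 and 155 ± 27.4 CPM at week 5 in NT3 rats, 149 ± 22.6 and 177 ± 14.2 CPM at weeks 11 and 5 in vehicle rats, and 155 ± 49.9 and 182 ± 4.58 CPM at weeks 11 and 5 in sham rats (SD, n = 5, and 4 in sham rats at week 5). The sham groups differed in spread: 116, 131, 133, 156 and 241 CPM at week 11, against 176, 182, 183 and 188 CPM at week 5. All but rat 8 of the week 11 sham rats lay below all 4 rats of week 5, and rat 8 lay above them. Week 11 against week 5 gave -0.16 (SE 0.09; adjusted p = 0.686) with the arms averaged, and limma voom with quality weights called this difference (-0.23, adjusted p = 0.0178).

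Gfra3, the co-receptor of artemin, had its lowest mean in vehicle rats and its highest in sham rats. It was at 66.0, 72.7, 72.8, 73.0 and 77.4 CPM at week 11 and 70.5, 72.2, 73.0, 78.5 and 80.6 CPM at week 5 in NT3 rats. Vehicle rats had 63.0, 65.5, 71.1, 74.0 and 74.5 CPM at week 11 and 58.3, 63.1, 68.2, 70.1 and 80.7 CPM at week 5. Sham rats had 69.3, 74.3, 79.8, 86.8 and 93.7 CPM at week 11 and 67.0, 71.4, 72.7 and 79.5 CPM at week 5. Vehicle rats averaged 68.8 ± 6.63 CPM (SD, n = 10) and sham rats 77.2 ± 8.71 CPM (SD, n = 9), with overlap, and the order of the group means ran from sham at week 11 down to vehicle at week 5. In vehicle against sham Gfra3 was 10.1% lower with the weeks averaged (log2 fold change -0.15, SE 0.06; unadjusted p = 0.0169, adjusted p = 0.27) and differed by -0.21 (SE 0.08; unadjusted p = 0.0159, adjusted p = 0.507) at week 11. Of all tested transcripts, 8.86% were lower at an unadjusted p under 0.05 in the averaged comparison and 5.98% at week 11, so such a p in this direction was common in these libraries. The share of reads outside annotated features averaged 33.4 ± 2.44% in vehicle and 30.6 ± 2.84% in sham libraries and was correlated with Gfra3 over 29 libraries (r = -0.576, rho = -0.428, permutation p = 0.00131, adjusted p = 0.00742, r = -0.29 without the 2 libraries with the most extreme shares). With that share as a covariate the averaged difference was -0.08 (SE 0.06; adjusted p = 1).

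Artn, the ligand, was near the lower end of what was counted. It was at 0.605, 0.628, 0.644, 0.692 and 0.799 CPM in NT3 rats at week 11, against 0.389, 0.438, 0.448, 0.519 and 0.551 CPM at week 5, without overlap, as 0.462% of transcripts were. This rests on 11 to 17 reads per library at week 11 and 8 to 10 at week 5. The log2 fold change was 0.53 (SE 0.23; adjusted p = 1). The SEs given for Artn are too small, since the interval built on this SE (0.06 to 0.99) left out 0 while the edgeR unadjusted p was 0.0507. Vehicle rats averaged 0.522 ± 0.155 CPM at week 11 and 0.561 ± 0.219 CPM at week 5, and sham rats 0.628 ± 0.0973 CPM at week 11 and 0.646 ± 0.119 CPM at week 5. The change between weeks in NT3 rats exceeded that in vehicle rats by 0.62 (SE 0.33; adjusted p = 1).

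The group means were put in order for each gene. For Ret they ran down from vehicle and sham rats at week 5 through NT3 rats at week 5 and week 11 to vehicle and sham rats at week 11. For Gfra1 they ran from vehicle and sham rats at week 5 to sham rats at week 11, and for Artn from NT3 rats at week 11 to NT3 rats at week 5. In every gene, neighbours in this order differed by less than the larger of their SDs, except Gfra2 between vehicle rats at week 5 and NT3 rats at week 11. Sorting itself puts like means side by side, so this does not show that the groups were alike. The ends of the order were 470 ± 20.4 and 370 ± 56.1 CPM for Ret (SD, n = 5 each). They were 300.4 ± 21.4 and 273 ± 45.1 CPM for Gfra1, and 0.674 ± 0.0771 and 0.469 ± 0.0654 CPM for Artn.

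The question of the study was what neurotrophin-3 changes in the ganglia after a stroke, and none of the 5 genes passed the test in NT3 against vehicle, nor did any other transcript (0% of 12556, with 3.32% at an unadjusted p under 0.05). Ret averaged 414 ± 46.5 CPM in NT3 and 431 ± 47.0 CPM in vehicle rats (SD, n = 10 each), a difference of -3.5% with a 95% confidence interval from -12.1% to 5.9%. Gfra1 averaged 282 ± 18.3 CPM in NT3 and 292 ± 18.9 CPM in vehicle rats (-3.55%, from -11.0% to 4.47%), and Gfra2 155 ± 22.3 CPM in NT3 and 163 ± 23.1 CPM in vehicle rats (-4.48%, from -17.7% to 10.9%). Gfra3 averaged 73.7 ± 4.20 CPM in NT3 and 68.8 ± 6.63 CPM in vehicle rats (6.99%, from -1.57% to 16.3%). Each interval holds 0, and for the 4 receptor genes none reaches a change of 20% in either direction. Artn averaged 0.571 ± 0.127 CPM in NT3 and 0.542 ± 0.18 CPM in vehicle rats, with an interval from -18.0% to 31.0% that is too narrow, like the SEs of Artn. At week 5 alone the log2 fold changes of Ret, Gfra1 and Gfra2 were -0.15 (SE 0.09), -0.13 (SE 0.08) and -0.20 (SE 0.15), that of Gfra3 was 0.14 (SE 0.08), and each had an adjusted p of 1.

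**Figure D2:**
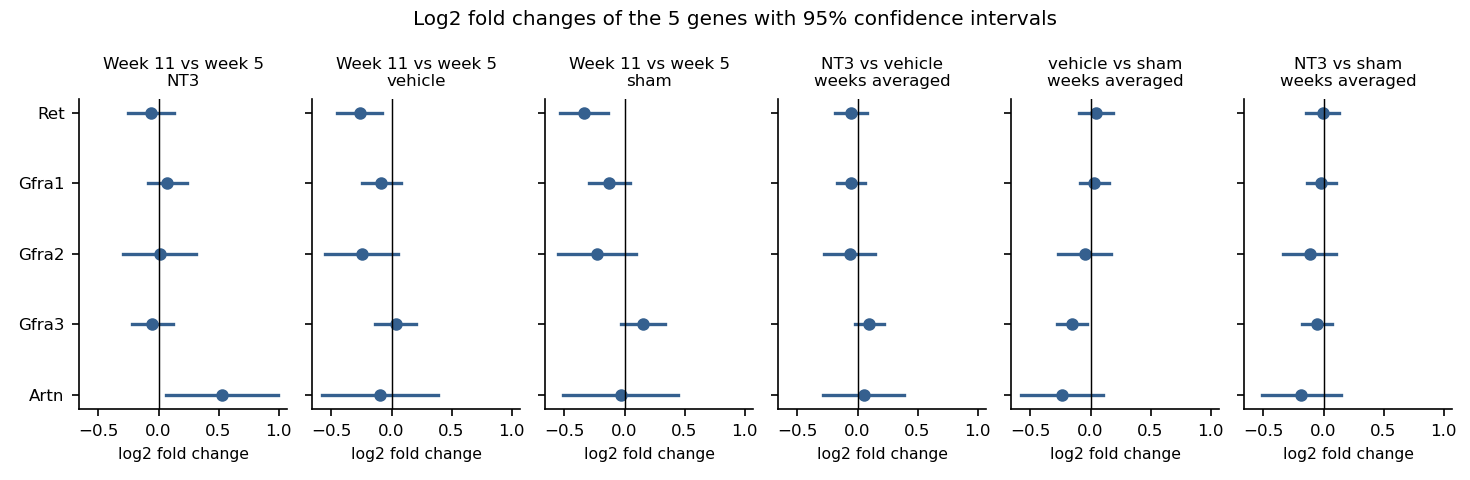
Log2 fold changes (horizontal axes; points) of the 5 genes with unadjusted 95% confidence intervals (lines), for week 11 against week 5 in each arm and for the 3 pairs of arms with weeks averaged. The interval of Ret lies below 0 for the weeks in vehicle (-0.27) and sham rats (-0.34), and that of Gfra3 lies below 0 for vehicle against sham (-0.15). That of Artn lies above 0 for the weeks in NT3 rats (0.53), where the edgeR unadjusted p was 0.0507, so the Artn intervals are too narrow. No gene passed the adjusted test.

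In NT3 against sham 0 of the 5 genes and 0% of transcripts passed, with 10.6% at an unadjusted p under 0.05. The log2 fold changes with weeks averaged were -0.01 (SE 0.07) for Ret, -0.02 (SE 0.06) for Gfra1, -0.12 (SE 0.11) for Gfra2, -0.06 (SE 0.06) for Gfra3 and -0.18 (SE 0.16) for Artn. In vehicle against sham, where 0 genes and 0% of transcripts passed and 16.9% had an unadjusted p under 0.05, those of the genes other than Gfra3 were 0.05 (SE 0.07) for Ret, 0.03 (SE 0.06) for Gfra1, -0.05 (SE 0.11) for Gfra2 and -0.24 (SE 0.17) for Artn. The sign of Gfra2 turned to 0.11 with the share of unannotated reads fitted as a covariate, 0.06 without rat 8, 0.035 without rats 8 and 27 and 0.01 with voom. The comparisons share the groups they are set against and are not independent. Over all 16 contrasts, 5 of the 80 values had an unadjusted p under 0.05, of which 3 were Ret between the weeks (vehicle, sham and arms averaged, where 1.84%, 2.1% and 2.5% of transcripts were lower by the same rule) and 2 were Gfra3 in vehicle against sham.

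The clearest pattern lay between single rats: Ret, Gfra1 and Gfra2 varied together and Gfra3 and Artn did not follow them. Over 29 libraries the log2 CPM of Ret and Gfra1 had a Pearson r of 0.711 (Spearman rho 0.645, permutation p = 4e-05, adjusted p = 0.000133). Ret and Gfra2 had an r of 0.701 (rho 0.785, permutation p = 2e-05, adjusted p = 0.0001), and Gfra1 and Gfra2 an r of 0.736 (rho 0.737, permutation p = 1e-05, the smallest that 100000 permutations can give, adjusted p = 0.0001). After subtraction of the 6 group means these were 0.709, 0.635 and 0.71, so they did not rest on differences between groups. Without the 2 libraries farthest from the median of the first gene they were 0.535, 0.699 and 0.7, and without rats 8 and 27 they were 0.754, 0.782 and 0.681.

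Gfra3 was not correlated with Ret (r = -0.316, rho = -0.178, adjusted p = 0.235), with Gfra1 (r = -0.196, rho = -0.173, adjusted p = 0.61) or with Gfra2 (r = 0.096, rho = -0.023, adjusted p = 0.802) past the threshold. Without rats 8 and 27 it was inversely correlated with Ret (r = -0.465, adjusted p = 0.0301) and with Gfra1 (r = -0.52, adjusted p = 0.0156), while after subtraction of the group means over all libraries r was -0.106 and 0.017. Artn had an r between -0.08 and 0.139 with the other 4. In all, 10 pairs were tested.

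**Figure D3:**
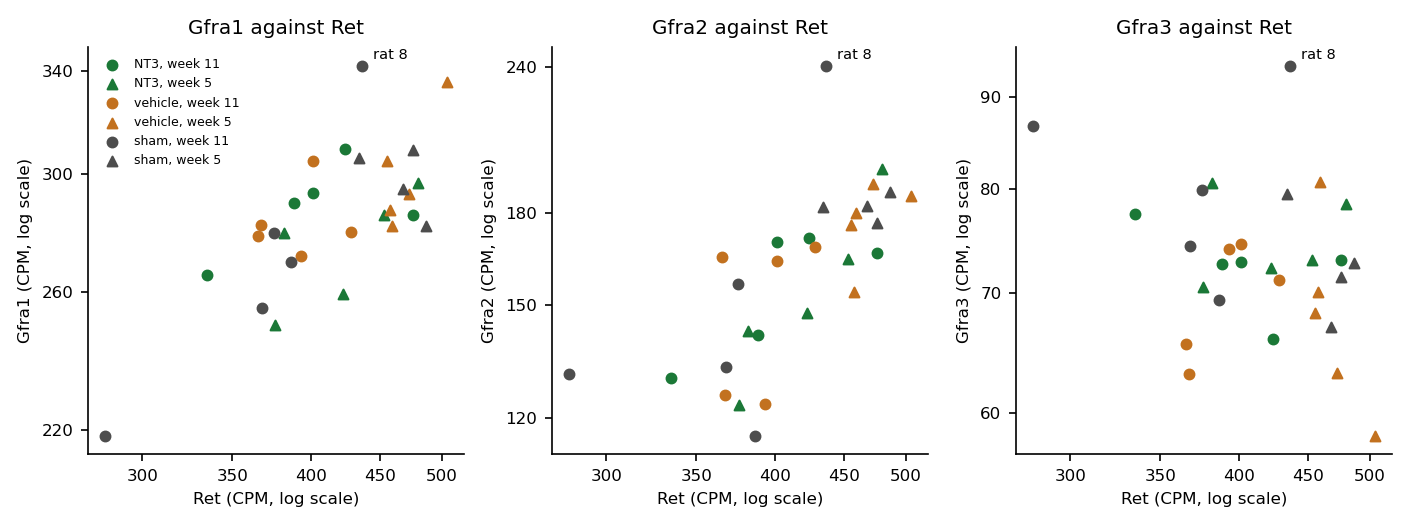
Levels of Gfra1, Gfra2 and Gfra3 (vertical axes, CPM on log scales) against Ret (horizontal axes, CPM on log scales), with 1 point per rat, coloured by arm, circles for week 11 and triangles for week 5. Gfra1 (r = 0.711) and Gfra2 (r = 0.701) climb with Ret, Gfra3 (r = -0.316) does not, and sham rat 8 lies above the other points in Gfra2 and Gfra3.

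The transcripts most like each gene over the 29 libraries, ranked by Pearson r among about 11009 transcripts of at least 1 CPM and given as a description, differed between the genes. For Ret they were Scn11a, a sodium channel of nociceptors (r = 0.922), the second Ret transcript (0.902), the receptor kinase gene Alk (0.883), Wipf3 (0.878) and Spef1 (0.876). For Gfra1 they were Apba1 (0.914), Ablim3 (0.901), the transporter gene Clcn6 (0.891), Cnnm4 (0.889) and Scn10a, another sodium channel of nociceptors (0.886). For Gfra2 they were Slc37a1 (0.954), the formin gene Fmnl1 (0.949), the phospholipase gene Plcb3 (0.949), the pentraxin receptor gene Nptxr (0.934) and the pentraxin gene Nptx2 (0.933). The likeness of Gfra3 was weaker and to other kinds of genes: Ccnq (0.79), the phosphatase inhibitor gene Ppp1r14b (0.785), the copper chaperone gene Ccs (0.776), Gemin8 (0.772) and the mitochondrial ribosome gene Mrps25 (0.766). For Artn no transcript exceeded an r of 0.578 (C14h4orf19). Ranked by likeness to Ret among 11008 transcripts, Gfra1 was at place 103 and Gfra2 at 117, while Gfra3 was at 9423. By likeness to Gfra1, Gfra2 was at place 175 and Ret at 226, and by likeness to Gfra2, Gfra1 was at 359 and Ret at 527. Many transcripts outside the family thus followed these genes more closely than they followed each other.

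Some marker lists of cell types, which held none of the 5 genes, varied along with the receptors. Each list mean gave equal weight to its tested markers. Over 29 libraries Tac1 (peptidergic) had 0 reads, Ntrk3 (large-diameter) 1, Slc1a3 (satellite glia) 4 and P2rx3 (non-peptidergic) 36, and these were not tested. Calca (peptidergic) averaged 4.37 CPM, Apoe (satellite glia) 0.667 CPM and Snap25 (all sensory neurons) 0.335 CPM, and these were kept. The lists are therefore partial measures of the cell types. Scn10a was part of the peptidergic list, so that list may not be particular to peptidergic neurons. The mean log2 CPM of non-peptidergic nociceptor and C-fibre markers was correlated with Gfra2 (r = 0.848, rho = 0.88, permutation p = 1e-05, adjusted p = 0.00017), Ret (r = 0.737, rho = 0.772, adjusted p = 0.00017) and Gfra1 (r = 0.61, rho = 0.672, adjusted p = 0.00272) and not past the threshold with Gfra3 (r = -0.128, rho = -0.091, adjusted p = 0.776). Without the 2 libraries with the most extreme marker levels the first 3 were 0.841, 0.721 and 0.542. Markers of peptidergic nociceptors and cold receptors gave r = 0.757 with Ret (rho = 0.743, adjusted p = 0.000283), r = 0.777 with Gfra2 (rho = 0.792, adjusted p = 0.00017) and r = 0.652 with Gfra1 (rho = 0.58, adjusted p = 0.00142), which were 0.692, 0.735 and 0.526 without the 2 extreme libraries. With Gfra3, known from peptidergic neurons, r was 0.053 (rho = 0.145, adjusted p = 0.9). Gfra2 was inversely correlated with satellite glia markers (r = -0.844, rho = -0.772, adjusted p = 0.00017; -0.765 without the 2 extreme libraries) and with large-diameter neuron markers (r = -0.764, rho = -0.758, adjusted p = 0.00017; -0.726 without them). Gfra1 was inversely correlated with the same lists, with r = -0.585 for satellite glia (rho = -0.604, adjusted p = 0.00726; -0.472 without the 2 extreme libraries) and r = -0.568 for large-diameter neurons (rho = -0.642, adjusted p = 0.00742; -0.476 without them). Ret was not past the threshold with either (r = -0.393 and -0.27). Markers common to all sensory neurons were not correlated with any of the 5 past the threshold (r between -0.259 and 0.081). Brain and spinal cord markers were inversely related by rank, by permutation, to Gfra1 (rho = -0.571, adjusted p = 0.0107) and Gfra2 (rho = -0.548, adjusted p = 0.0131). The same held for Ret (rho = -0.467, adjusted p = 0.0498). Their Pearson r with Gfra1, Gfra2 and Ret was not past the threshold (-0.148, -0.081 and -0.259). Without rats 8 and 27 r was -0.416, -0.517 and -0.34. Adjusted p-values here run over 85 relations.

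Ret was inversely correlated with macrophage markers (r = -0.508, rho = -0.538, permutation p = 0.00531, adjusted p = 0.0282; -0.463 without the 2 extreme libraries), and after subtraction of the group means r was -0.192. With endothelial markers Ret gave r = -0.489 (rho = -0.545, permutation p = 0.00689, adjusted p = 0.0344; -0.367 without the 2 extreme libraries), and -0.29 after subtraction of the group means. Gfra2 was also correlated with the first principal component of all transcripts (r = -0.691, rho = -0.615, adjusted p = 0.000425; -0.566 without the 2 extreme libraries), whereas Ret was not past the threshold (r = -0.137, adjusted p = 0.751).

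**Figure D4:**
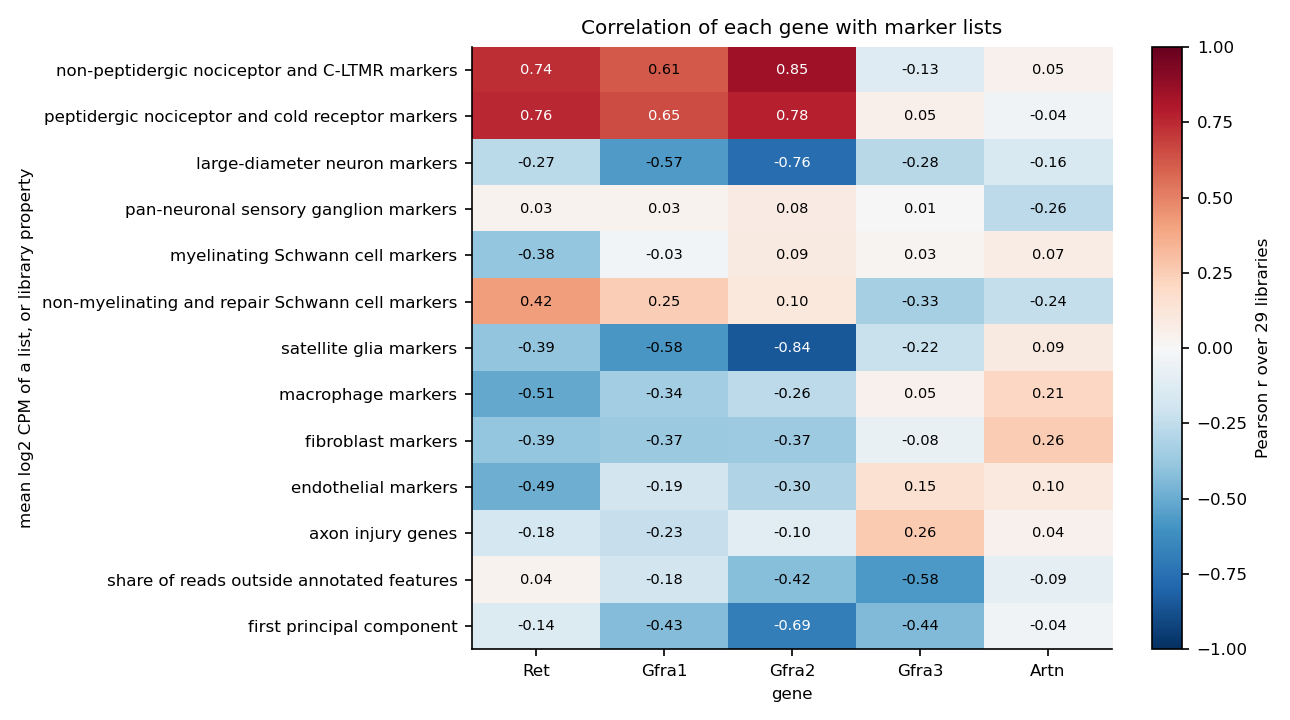
Pearson r over 29 libraries between each of the 5 genes (columns) and the mean log2 CPM of a marker list or a property of the library (rows), red for positive and blue for negative values. Brain and spinal cord markers are not among the rows. Ret, Gfra1 and Gfra2 are red in both nociceptor rows, Gfra2 is the darkest blue for satellite glia markers (r = -0.844), and Gfra3 and Artn are pale in both nociceptor rows.

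Of the other ligands and receptors of the family, none was abundant. Gdnf had 47 reads over all 29 libraries, Nrtn, the gene of neurturin, 67, Gfral, the receptor of GDF15, 28 and Gdf15 75, and these were too few to test. Gdnf reads numbered 15 at week 11 and 10 at week 5 in NT3 libraries, 12 and 2 at weeks 11 and 5 in vehicle libraries, and 5 and 3 at weeks 11 and 5 in sham libraries, and no order of the arms is read from counts this low. Pspn, the gene of persephin, had 562 reads and Gfra4, its co-receptor, 644. Gfra4 averaged 0.995 ± 0.244 CPM in NT3 rats, against 1.34 ± 0.326 CPM in vehicle rats (SD, n = 10 each) and 1.28 ± 0.237 CPM in sham rats (SD, n = 9). The arms overlapped, and the log2 fold change in NT3 rats was -0.43 against vehicle (SE 0.16; adjusted p = 1) and -0.38 against sham (SE 0.16; adjusted p = 0.461). At week 5 Gfra4 was at 0.778 to 1.21 CPM in the 5 NT3 rats, against 1.25 to 1.53 CPM in the 4 sham rats, without overlap, as 0.629% of transcripts were (log2 fold change -0.59, SE 0.23; unadjusted p = 0.0163, adjusted p = 0.81). Against vehicle rats at week 5, with overlap, the log2 fold change of Gfra4 was -0.62 (SE 0.22, edgeR unadjusted p = 0.00943, adjusted p = 0.726).

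Modulators and adaptors of the pathway were described from 2 lists chosen with earlier results known. Of 14 ligands, further receptors and modulators, 8 were tested and 0 passed in any of the 3 pairs of arms or in any comparison of weeks. In vehicle against sham the smallest p belonged to Lrig2, a leucine-rich repeat membrane protein, with a log2 fold change of 0.32 (SE 0.10; adjusted p = 0.269), and in NT3 against sham it was at 0.26 (SE 0.10; adjusted p = 0.461). Ncam1, which GDNF can also use as a receptor, was at 0.12 (SE 0.07), Sorl1, a sorting receptor, at 0.13 (SE 0.09) and the syndecan gene Sdc3, whose product binds GDNF family ligands, at -0.14 (SE 0.08) in vehicle against sham, none past the threshold.

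Of 27 RET adaptors, signalling and feedback genes 25 were tested, and 1 passed in 1 contrast. Dusp6, a phosphatase that dampens signalling downstream of growth factor receptors, rose in vehicle rats at week 11, with 28.2 ± 5.27 CPM against 17.8 ± 4.73 CPM at week 5 (SD, n = 5 each; log2 fold change 0.66, SE 0.15, edgeR adjusted p = 0.0311). The ranges, 23.9 to 34.5 CPM at week 11 and 13.4 to 25.6 CPM at week 5, overlapped. The call was lost with only the 2 groups in the fit (adjusted p = 0.256), with voom (0.50, adjusted p = 0.098) and without any 1 of vehicle rats 1, 9, 14, 27, 42 or 50 (adjusted p up to 0.167), with the log2 fold change between 0.57 and 0.82 when 1 library was left out. Dusp6 is expressed in many cell types, and 5 of the 8 macrophage markers rose in the same comparison, whose part in this value was not tested. In vehicle against sham Dok6, an adaptor that binds RET, was at 0.84 (SE 0.31; adjusted p = 0.269), Frs2, another adaptor, at 0.28 (SE 0.13; adjusted p = 0.293), and the kinase gene Mapk3 at -0.12 (SE 0.06; adjusted p = 0.293). In NT3 against sham Mapk3 was at -0.14 (SE 0.06), Dok5 at -0.24 (SE 0.10), Dok4 at -0.17 (SE 0.08) and Gab1 at 0.10 (SE 0.05), each with an adjusted p of 0.461. In NT3 against vehicle the list's median was 0.00, against -0.01 over all transcripts, and 0 of the 25 passed. At week 5 alone the median was -0.08 in NT3 against vehicle, against -0.01 over all transcripts, again with 0 passed.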

How the data were processed

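The authors deposited read counts per RefSeq transcript for each library, whole numbers without normalization, with duplicates removed, as their names state; the submitters' processing notes name HTSeq, Picard, TopHat2, bcl2fastq 1.8.4 and the build rn6 (Rnor_6.0). Transcripts were named through a RefSeq gene table of GRCr8, used for names only. Counts were fitted with edgeR 4.0.16 in R 4.3.3 over all 29 libraries (6 group means, no covariates, filterByExpr with a minimum count of 10, TMM factors 0.974 to 1.061), which left 12556 transcripts. Tests were two-sided quasi-likelihood tests with Benjamini-Hochberg adjustment within each of 16 contrasts (common BCV 0.185). A prior count of 2 entered log2 CPM. Genes, lists and tests were chosen with earlier results of these data known. Pathway genes named are those called, the 4 of smallest p per list and averaged comparison of arms at a mean of at least 1 CPM, and the family's ligands and receptors. Some genes that this rule names are left out of the text. Rat numbers were unique, so no samples were paired. The fit was tested on simulated data. Alternatives were DESeq2 1.42.0, limma 3.58.1 voom with quality weights, other size factors, no filter, only the groups compared, a covariate (the library's share of reads outside annotated features), summed transcripts, and left-out libraries.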

Additional observations from a re-analysis of the deposited data

How the results depend on the processing

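Of 1798 values of the 5 genes under alternatives, 1704 kept their sign and their side of the threshold, 85 changed sign and 9 newly passed. Each of the 85 was uncalled in both fits and within 1 SE of 0 in at least one, and the main values they belong to were at most 0.10 in size, among them Gfra2 in vehicle against sham with weeks averaged (main -0.05, covariate 0.11) and at week 11 (main -0.06, covariate 0.16, without rats 8 and 27 0.11, voom 0.09). In Ret, week 11 against week 5 with arms averaged (main -0.22), the adjusted p was 0.0202 with DESeq2, 0.00255 with limma voom, 0.0373 with the covariate (-0.22) and 0.0273 without rats 8 and 27 (-0.24). Leaving out 1 library at a time moved it between -0.25 and -0.19, with adjusted p from 0.0179 to 0.173. There 1 of the 5 genes passed with DESeq2, 2 with voom, 1 with the covariate, 1 without rats 8 and 27 and 0 to 1 with 1 library left out, and in sham rats 3 passed with voom. In all other contrasts and settings run, 0 of the 5 passed. The cause of these differences was not tested.

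Counts of transcripts called moved more. For week 11 against week 5 in vehicle rats 106 became 195 with DESeq2, 0 with only the groups compared, 24 without rats 8 and 27, and 1 to 214 with 1 library left out. With arms averaged, 63 became 157 with DESeq2, 797 with voom, 41 without the filter, 152 with the covariate, 172 without rats 8 and 27, and 17 to 220 with 1 library left out. In sham rats 0 became 2209 with voom. Voom also called 36 in NT3 against vehicle at week 5, 36 in vehicle against sham averaged, 2 at week 11 and 1079 at week 5 (DESeq2 2, only the groups compared 1), 4 in NT3 against sham at week 11, and 1 and 5 in the differences between weeks of vehicle and of NT3 against sham (DESeq2 called 1 for vehicle against sham).

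Among the pairs, only Ret with Gfra3 (r = -0.465) and Gfra1 with Gfra3 (r = -0.52) newly passed, without rats 8 and 27. No paired analysis was possible because each rat gave 1 library and replicate numbers only follow the order of accession. Depth limits Artn, with 5 to 17 reads per library, and shared reads may lower both Ret counts. P-values cover the spread between single rats of 1 strain.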
